A study of Mus musculus with 29 samples.

Results

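The stroke response of NSG mice was set against the stroke response of wildtype (WT) mice, gene by gene, as a difference of differences: stroked minus non-stroked samples of NSG mice, less the same contrast in WT mice. This comparison used 15 of the 29 RNA sequencing samples of the study, namely 4 non-stroked NSG mice, 3 stroked NSG mice, 4 non-stroked WT mice and 4 stroked WT mice, chosen by genotype and treatment labels alone. A positive value means that the change after stroke was more positive in NSG than in WT mice. It can come from a larger rise in NSG mice, from a fall in WT mice, or from both, so each gene is given below with its level in every sample.

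All samples were brain tissue of 3-month-old mice. NSG mice (NOD scid gamma) carry the scid mutation of Prkdc and lack a working Il2rg gene on a NOD background, WT mice were of C57BL/6 background, and stroked mice of both genotypes had a large photothrombotic lesion of the right sensorimotor cortex that was dissected 21 days later. Non-stroked samples are labelled Ctrl, and the sources used here describe them both as the side opposite a lesion and as naïve mice, so they are called non-stroked here. No sample of the 4 groups received tacrolimus, an immunosuppressive drug given to other mice of the study. Immune deficiency and the NOD background were present in the same animals and cannot be told apart in this comparison. The study also held 3 non-stroked and 3 stroked Rag2-/- mice, which lack T and B cells on a C57BL/6 background and serve below as a further reference.

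Il2rg encodes the common gamma chain, a receptor subunit shared by several interleukin receptors that lymphocytes and natural killer (NK) cells need, and Prkdc encodes a DNA repair kinase needed to assemble antigen receptors. Mice without both have no functional T, B or NK cells, while microglia, astrocytes and infiltrating myeloid cells remain. Immediate early genes are transcribed within minutes of synaptic activity, growth factor signalling or injury, without new protein synthesis, and many encode transcription factors that set later gene programmes.

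Library totals of the 15 samples ranged from 21309103 to 41093219 counts, with a median of 38298061. The 2 shallowest of them, at 21309103 and 29928311 counts, were stroked WT mice 5_2 and 5_3, which carry the prefix TF in their titles, whereas the other 13 carry the prefix Imm2. The plots call the prefix a cohort, and the labels do not say what it stands for. Counts of Ddx3y, a Y-linked gene, were 0 in those 2 mice and in stroked NSG mice 1f_1 and 1f_2, and were between 35.4 and 53.1 CPM (counts scaled by edgeR to a common library size) in the other 11, including all 8 non-stroked mice. Sex was therefore not balanced between stroked and non-stroked mice of either genotype. Summed markers of midbrain, striatum and thalamus, regions outside the cortex, were between 488 and 699 CPM in non-stroked WT mice and at 752, 937, 1752 and 2088 CPM in non-stroked NSG mice 1 to 4. Of these markers, Tph2 and Slc6a4 stood at 19.6 and 13.7 CPM in non-stroked WT mouse 3. They were at most 1.64 and 0.581 CPM in the rest of the 15 samples. Summed choroid plexus markers spanned 19.3 to 1259 CPM over the 15 samples. Because each sample was a piece of tissue, fewer cells of a type and less RNA per cell cannot be told apart in any result below.

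Stroke changed many genes in both genotypes, and few of these changes differed between them beyond the spread of the samples. With a call set at an edgeR adjusted p under 0.05 and an absolute log2 fold change over 1, 1152 genes rose after stroke in WT mice (6.76% of the 17031 genes tested) and 853 in NSG mice (5.01%). Genes that fell numbered 92 in WT mice (0.54%) and 80 in NSG mice (0.47%). No samples are shared between these comparisons. The genes that rose had 649 in common, which were 56.3% of the WT genes and 76.1% of the NSG genes. The genes that fell had 5 in common, which were 5.43% of the WT genes and 6.25% of the NSG genes. The total of 1244 calls in WT mice was 707 within the Imm2 samples, and the total of 933 in NSG mice was 556 with the Ddx3y level as a covariate.

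**Figure D1:**
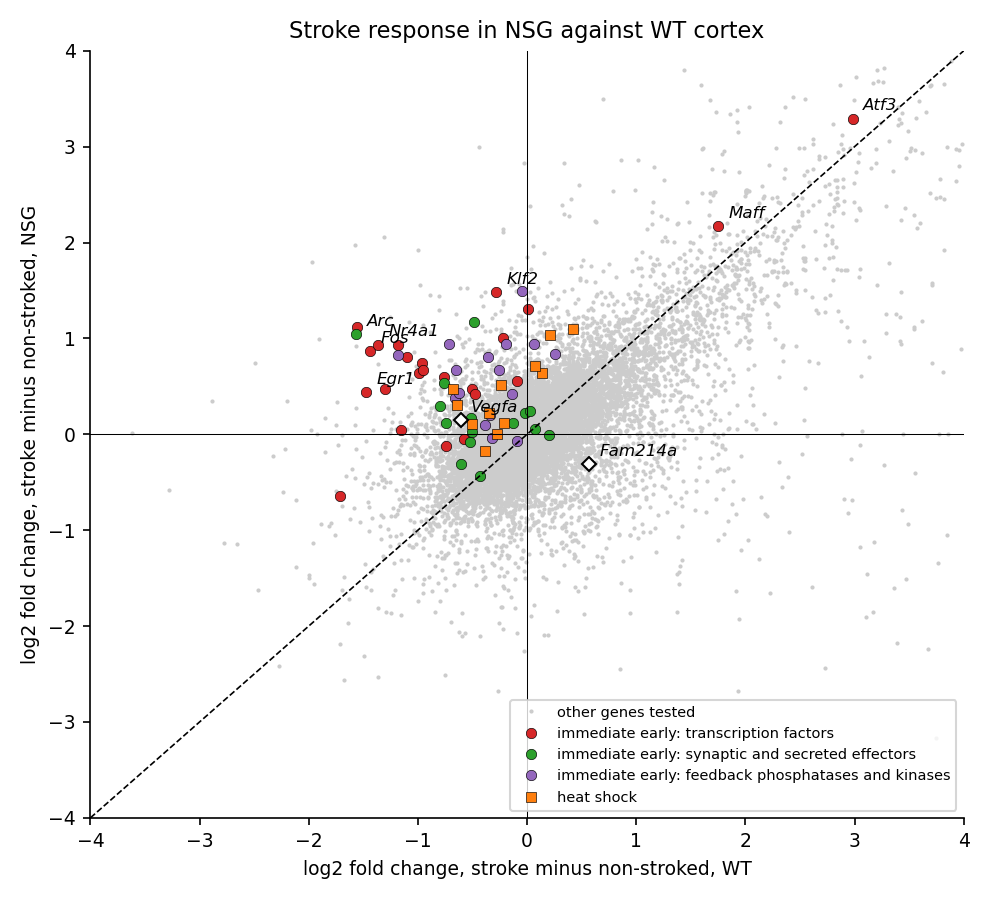
Log2 fold change after stroke in WT mice (horizontal axis) and in NSG mice (vertical axis), 1 point per gene tested, with immediate early genes coloured by role, heat shock genes as squares and Vegfa and Fam214a as open diamonds; the dashed line marks equal change, and 154 genes with a value beyond 4 on either axis lie outside the plot. Most immediate early genes lie above the line and left of 0, as Egr1 does at -1.47 in WT and 0.44 in NSG, while Atf3 and Maff lie near the line at the upper right.

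The difference of the responses itself was called for 2 of 17031 genes (0.0117%), Nr4a1 and Egr1, both higher in NSG mice. At an adjusted p under 0.05 without a minimum fold, 3 more genes passed: Vegfa and Gatm were higher and Fam214a was lower. At an unadjusted p under 0.05, 1143 genes were higher (6.71%) and 1024 were lower (6.01%). DESeq2, run on the same counts, called 69 genes (0.405%), 39 higher and 30 lower. The count of 2 depended on single libraries: 1 call was made without non-stroked NSG mouse 1 or non-stroked WT mouse 4, 3 without stroked WT mouse 2m_5, 5 without non-stroked NSG mouse 2, 6 without stroked WT mouse 2m_3 or non-stroked WT mouse 3, 12 without non-stroked WT mouse 1, and 117 without stroked NSG mouse 1m_3. No gene was called without stroked NSG mouse 1f_2, non-stroked NSG mouse 3 or 4, non-stroked WT mouse 5, or stroked WT mouse 5_2 or 5_3. Within the Imm2 samples no gene was called by edgeR, and 1093 passed an unadjusted p under 0.05. That fit held Rag2-/- mice and a tacrolimus mouse of the same prefix beside the 13 NSG and WT samples.

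Egr1 encodes a zinc finger transcription factor induced by neuronal activity. Its level in non-stroked WT mice 1, 3, 4 and 5 was 600, 630, 1004 and 937 CPM, and in stroked WT mice 2m_3, 2m_5, 5_2 and 5_3 it was 355, 345, 189 and 252 CPM. In non-stroked NSG mice 1 to 4 it was 234, 398, 308 and 275 CPM, and in stroked NSG mice 1f_1, 1f_2 and 1m_3 it was 316, 467 and 450 CPM. Every non-stroked WT sample lay above every other sample of the 4 groups, and the stroked and non-stroked NSG samples overlapped. Egr1 fell in WT mice by 1.47 on the log2 scale (edgeR adjusted p = 4.53e-05), whereas the change in NSG mice was 0.44 (edgeR adjusted p = 0.164). The difference was 1.91 ± 0.308 (SE), a ratio of fold changes of 3.76, at an edgeR adjusted p of 0.0266. Over 25 alternative fits it stayed between 1.61 and 2.08 and kept an adjusted p under 0.05 in 15.

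Nr4a1 encodes an orphan nuclear receptor of the same early class. Non-stroked WT mice had 124, 200, 349 and 146 CPM in the order above, and stroked WT mice had 85.6, 96.5, 46.2 and 89.7 CPM. Non-stroked NSG mice had 59.8, 109, 95.6 and 52.6 CPM, and stroked NSG mice had 138, 168 and 148 CPM. The groups with and without stroke did not overlap in either genotype, and they lay in opposite order. Nr4a1 fell in WT mice by 1.36 on the log2 scale (edgeR adjusted p = 0.00137), and its change in NSG mice was 0.94 (edgeR adjusted p = 0.0301). The difference was 2.30 ± 0.42 (SE) with an edgeR adjusted p of 0.0352, and it was between 1.91 and 2.62 over the 25 alternatives, 12 of which kept an adjusted p under 0.05. Within the Imm2 samples the difference was 2.09 for Nr4a1 and 1.61 for Egr1, with edgeR adjusted p of 0.345 and 0.302.

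Vegfa, the main growth factor for new blood vessels, is encoded on chromosome 17 (GRCm38, 46016993 to 46032369, minus strand). Its level was 82.9, 82.9, 76.3 and 90.7 CPM in non-stroked WT mice and 58.6, 51.7, 54.6 and 53.3 CPM in stroked WT mice. In NSG mice it was 79.9, 76.7, 71.0 and 69.1 CPM without stroke and 84.9, 94.2 and 66.9 CPM with stroke. All 4 stroked WT samples lay below all other samples, and in NSG mice the groups overlapped. The log2 change was -0.61 in WT mice and 0.14 in NSG mice, and the difference was 0.75 ± 0.133 (SE; edgeR adjusted p = 0.0345). Over the alternatives it was between 0.66 and 0.89, with 12 of 25 at an adjusted p under 0.05.

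Gatm encodes the enzyme that makes the precursor of creatine and lies on chromosome 2 (GRCm38, 122594467 to 122611303, minus strand). It had 99.4, 111, 92.2 and 105 CPM in non-stroked WT mice and 91.6, 98.5, 98.2 and 87.2 CPM in stroked WT mice. It had 78.4, 72.8, 62.2 and 69.5 CPM in non-stroked NSG mice and 123, 117 and 96.2 CPM in stroked NSG mice. Non-stroked NSG mice were thus the lowest of the 4 groups, and the stroked NSG mice lay above them without overlap. The change was -0.12 in WT and 0.66 in NSG mice on the log2 scale, a difference of 0.78 ± 0.142 (SE; edgeR adjusted p = 0.0352). Gatm kept an adjusted p under 0.05 in 12 of the 25 alternatives, and had 0.0644 with the title prefix as a covariate and 0.337 within the Imm2 samples by edgeR.

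Fam214a, on chromosome 9 (GRCm38, 74952884 to 75032468, plus strand), moved the other way. It had 43, 41.8, 38.2 and 33.0 CPM in non-stroked WT mice, 46.9, 57.4, 68.0 and 59.6 CPM in stroked WT mice, 47.3, 44.4, 54.8 and 51.4 CPM in non-stroked NSG mice, and 36.3, 39.5 and 43.8 CPM in stroked NSG mice. Stroked samples were above non-stroked ones in WT mice and below them in NSG mice, with no overlap in either genotype. The changes were 0.57 and -0.31 on the log2 scale, and the difference was -0.88 ± 0.149 (SE; edgeR adjusted p = 0.0266). Fam214a kept an adjusted p under 0.05 in 14 of the 25 alternatives, and had 0.0644 with the title prefix as a covariate and 0.302 within the Imm2 samples by edgeR.

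Egr1 and Nr4a1 belong to a list of 54 immediate early genes, all of which passed the filter on low counts. Of the 54, 37 were higher in the NSG response at an unadjusted p under 0.05 and 0 were lower, beside 6.71% and 6.01% of all genes tested. The list was written with earlier results of these data known, so these shares are not an independent test. The median difference over the list was 1.05 on the log2 scale, beside 0.01 over all genes, and 51 of 54 values were above 0. edgeR called 2 of the 54, and DESeq2 called 20, beside 0.405% of all genes. When each of the 15 samples was left out in turn, the median stayed between 0.90 and 1.12, the number higher at an unadjusted p under 0.05 between 31 and 40, and the number called by edgeR between 0 and 20, the latter without stroked NSG mouse 1m_3. With the title prefix as a covariate the median of the immediate early genes was 0.96 with 43 higher, within the Imm2 samples it was 0.95 with 40 higher, without non-stroked NSG mice 3 and 4 it was 1.07 with 36 higher, and with the Ddx3y level as a covariate it was 1.05 with 37 higher. Their summed level was 4463, 4866, 6934 and 5996 CPM in non-stroked WT mice, 3453, 3572, 2943 and 3368 CPM in stroked WT mice, 2982, 3851, 3411 and 3641 CPM in non-stroked NSG mice, and 4159, 4417 and 4123 CPM in stroked NSG mice. Non-stroked WT mice had the highest sums, stroked NSG mice came next, and the remaining 8 samples overlapped.

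The 2 genotypes contributed to the difference from opposite sides. In WT mice 11 immediate early genes fell and 2 rose, beside 0.54% and 6.76% of all genes, with a median of -0.51. In NSG mice 7 rose and 0 fell, beside 5.01% and 0.47%, with a median of 0.50. The 2 genes that rose in WT mice, Atf3 and Maff, were among these 7. Between non-stroked mice the median of NSG minus WT was -0.66, and 37 of the 54 were lower in NSG at an unadjusted p under 0.05, beside 11.1% of all genes. Between stroked mice the median was 0.40, and 21 of the 54 were higher in NSG at an unadjusted p under 0.05, beside 15.3% of all genes, while 3 were lower.

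The 23 transcription factors of the list had a median difference of 1.35, and 19 were higher at an unadjusted p under 0.05. In WT mice 9 of them fell: Egr1, Egr2, Egr3, Egr4, Nr4a1, Fos, Junb, Npas4 and Ier2. Fos, a subunit of the AP-1 factor, had 20.8, 56.1, 103 and 39.4 CPM in non-stroked WT mice, 19.3, 16.9, 12.4 and 32.1 CPM in stroked WT mice, 9.53, 26.7, 31.4 and 11.5 CPM in non-stroked NSG mice and 41.1, 36.3 and 30.8 CPM in stroked NSG mice. The spread between non-stroked WT mice was wide and their range overlapped that of the stroked WT mice. Fos fell in WT mice by 1.44 (edgeR adjusted p = 0.0114), its change in NSG mice was 0.86, and the difference was 2.31 ± 0.591 (SE), which did not pass (edgeR adjusted p = 0.124). Junb, a partner of Fos, differed by 1.91 ± 0.427 (edgeR adjusted p = 0.0865). Egr2 had the largest difference of the 54, at 2.68 ± 0.729 (edgeR adjusted p = 0.141).

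A further 5 transcription factors of the list rose in NSG mice, and their WT values differed among themselves. Klf2, a Krüppel-like factor of endothelium and lymphocytes, had 3.74, 3.40, 3.88 and 3.25 CPM in non-stroked NSG mice and 11.1, 12.5 and 6.33 CPM in stroked NSG mice. In WT mice it had 3.27, 7.15, 8.03 and 6.76 CPM without stroke and 5.30, 3.72, 6.26 and 5.50 CPM with stroke. The NSG groups were apart and the WT groups overlapped, and the difference was 1.77 ± 0.382 (SE; edgeR adjusted p = 0.0779). Klf4 rose by 1.31 and Csrnp1 by 1.01 in NSG mice, with changes of 0.01 and -0.22 in WT mice. Atf3 and Maff, stress-induced factors of the bZIP family, rose in both genotypes: Atf3 by 2.98 in WT and 3.29 in NSG mice, and Maff by 1.75 and 2.17. Their differences were 0.31 ± 0.864 and 0.42 ± 0.514, and these did not exceed the spread (edgeR adjusted p = 0.906 and 0.748).

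The role called synaptic and secreted effectors held 15 genes, not all of them synaptic or secreted, as Baz1a is a chromatin remodeller. These had a smaller median difference, 0.44, and 6 were higher at an unadjusted p under 0.05. Arc, a regulator of glutamate receptor trafficking at synapses, had 190, 476, 954 and 481 CPM in non-stroked WT mice, 202, 244, 84.8 and 178 CPM in stroked WT mice, 116, 248, 157 and 112 CPM in non-stroked NSG mice, and 310, 344 and 323 CPM in stroked NSG mice. All 3 stroked NSG mice lay above all stroked WT and all non-stroked NSG mice. Arc fell in WT mice by 1.57, changed by 1.04 in NSG mice (edgeR adjusted p = 0.0771), and differed by 2.61 ± 0.583 (edgeR adjusted p = 0.0865). Bdnf, a neurotrophin, differed by 1.30 ± 0.265 (edgeR adjusted p = 0.0598) and Vgf, a secreted neuropeptide precursor, by 1.09 ± 0.243 (edgeR adjusted p = 0.0865). In stroked NSG mice 1f_1, 1f_2 and 1m_3 the Bdnf level was 30.3, 38.9 and 19.1 CPM, beside 19.5 to 21.3 CPM without stroke, so the stroked group reached below the non-stroked one. Ptgs2, the inducible cyclooxygenase, rose in NSG mice by 1.18, with 32.9 CPM in mouse 1f_2 and 12.1 and 9 CPM in the other stroked NSG mice. Rgs2, Rgs4 and Baz1a had differences of -0.02, -0.00 and -0.21, the only values of the 54 below 0.

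The role called feedback phosphatases and kinases held 16 genes. Some of them, such as Gadd45b, Tiparp and Fbxo33, are neither phosphatases nor kinases, so the role is a loose label. The median difference of the 16 was 0.99, and 12 were higher at an unadjusted p under 0.05. Dusp6, a phosphatase of the ERK kinases, had 66.6, 70.5, 101 and 80.6 CPM in non-stroked WT mice, 47.1, 56.6, 44.8 and 54.8 CPM in stroked WT mice, 37.4, 55.6, 37.6 and 37.0 CPM in non-stroked NSG mice and 65.2, 75.8 and 59.1 CPM in stroked NSG mice. Its groups with and without stroke did not overlap in either genotype and lay in opposite order, with a difference of 1.32 ± 0.255 (SE; edgeR adjusted p = 0.0541). Dusp1 differed by 2.01 ± 0.435 (edgeR adjusted p = 0.0779), Trib1 by 1.65 ± 0.332 (edgeR adjusted p = 0.0546), Spry4 by 1.06 ± 0.246 (edgeR adjusted p = 0.103) and Dusp5 by 1.54 ± 0.387 (edgeR adjusted p = 0.124). Dusp5 rose in NSG mice by 1.49, with a change of -0.05 in WT mice.

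**Figure D2:**
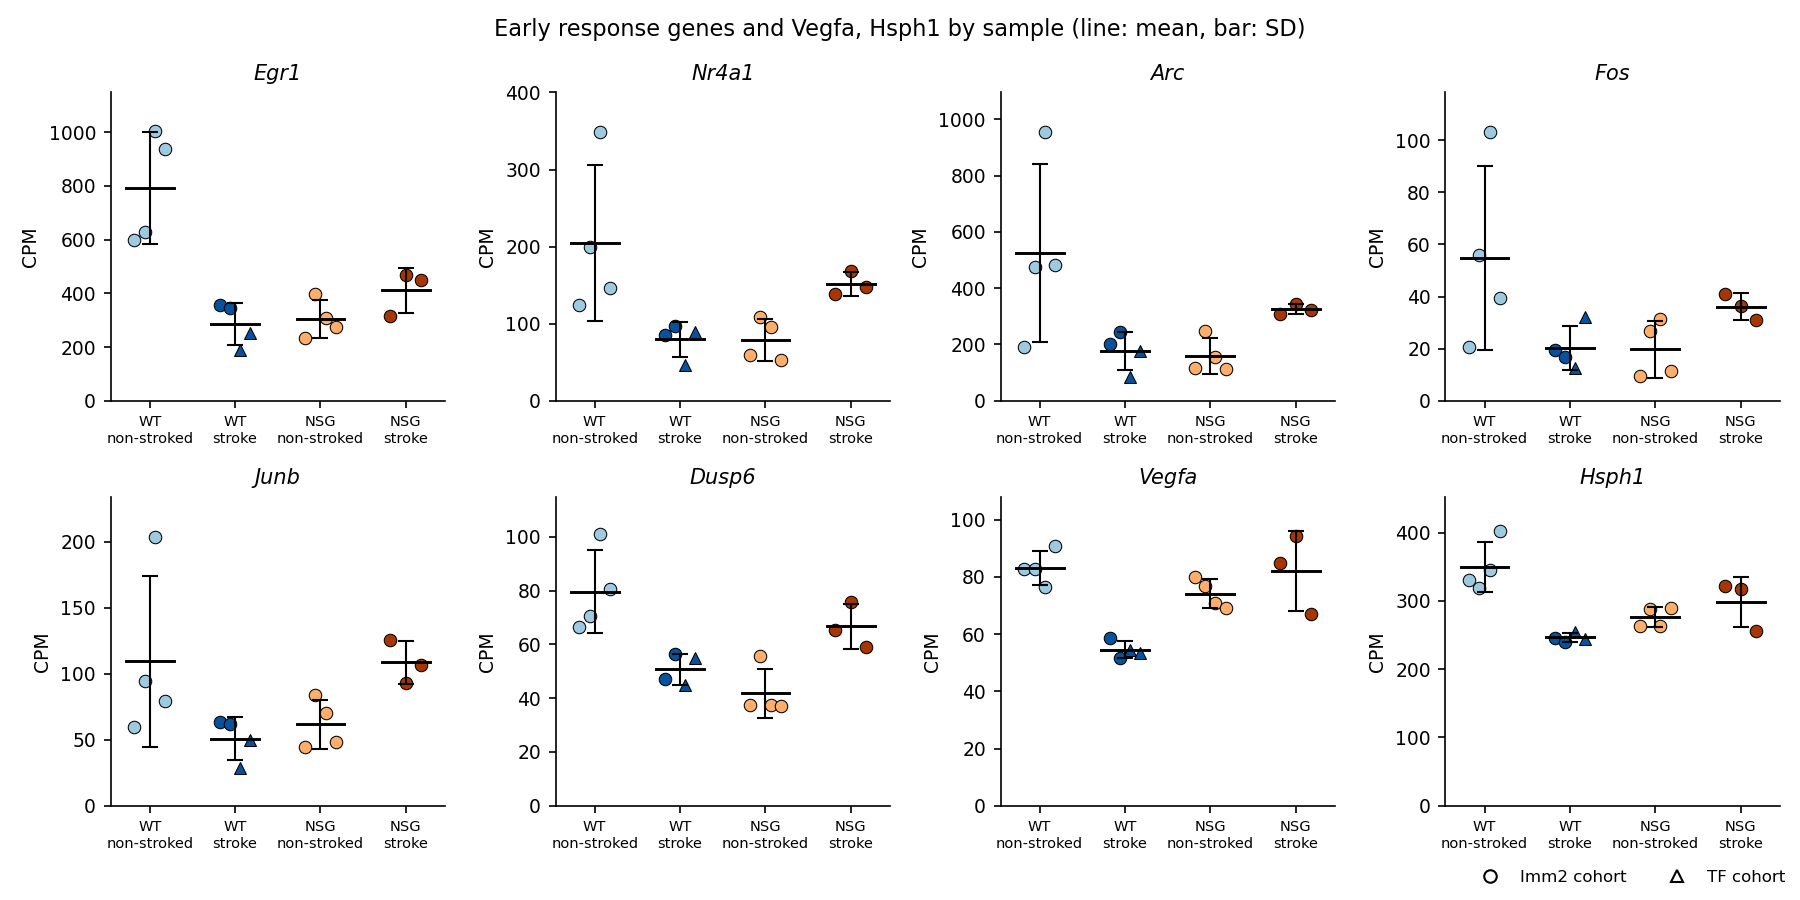
Level in CPM (vertical axes, starting near 0) of 6 immediate early genes, Vegfa and Hsph1 in each sample of the 4 groups, with the mean as a line and the SD as a bar; circles are Imm2 and triangles TF samples. Egr1 is highest in the 4 non-stroked WT samples, at 600 to 1004 CPM, and Nr4a1 and Dusp6 are lower with stroke in WT and higher with stroke in NSG mice, without overlap.

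Promoter sequences are shown for members of this list because so many of them moved together. They are the 250 bases before the transcription start in RefSeq (GRCm38.p6), each 5′ to 3′ on the strand of the gene, for the 4 immediate early genes with the smallest p that have 1 listed start and hold the motif TGACG, and for Dusp6, which does not hold it. Genes on the chromosome of Egr1 were left out of this choice, so Egr1 is not shown, whatever its promoter holds. TGACG is the core of the cAMP response element bound by CREB, and capitals mark it on either strand, so that CGTCA is the same motif read from the other strand and TGACGTCA holds it on both. Positions are Nr4a1 at chr15:101266596-101266845 (plus strand), Egr4 at chr6:85513590-85513839 (minus strand), Klf2 at chr8:72318812-72319061 (plus strand), Dusp1 at chr17:26508473-26508722 (minus strand) and Dusp6 at chr10:99262981-99263230 (plus strand).
Nr4a1: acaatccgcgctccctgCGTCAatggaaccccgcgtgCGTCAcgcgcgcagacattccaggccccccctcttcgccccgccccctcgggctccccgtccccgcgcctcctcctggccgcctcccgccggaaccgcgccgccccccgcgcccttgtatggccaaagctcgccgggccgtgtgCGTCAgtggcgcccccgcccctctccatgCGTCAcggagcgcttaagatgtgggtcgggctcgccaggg
Egr4: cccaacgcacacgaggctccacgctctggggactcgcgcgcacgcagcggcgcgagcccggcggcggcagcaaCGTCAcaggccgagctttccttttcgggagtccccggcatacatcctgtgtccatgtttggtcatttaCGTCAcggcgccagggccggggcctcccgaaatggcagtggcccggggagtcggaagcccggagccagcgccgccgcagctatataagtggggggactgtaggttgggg
Klf2: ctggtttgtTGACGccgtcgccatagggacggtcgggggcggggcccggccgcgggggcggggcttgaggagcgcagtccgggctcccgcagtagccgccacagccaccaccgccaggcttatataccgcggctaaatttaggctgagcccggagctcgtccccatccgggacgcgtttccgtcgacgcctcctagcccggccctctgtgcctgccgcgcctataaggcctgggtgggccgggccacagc
Dusp1: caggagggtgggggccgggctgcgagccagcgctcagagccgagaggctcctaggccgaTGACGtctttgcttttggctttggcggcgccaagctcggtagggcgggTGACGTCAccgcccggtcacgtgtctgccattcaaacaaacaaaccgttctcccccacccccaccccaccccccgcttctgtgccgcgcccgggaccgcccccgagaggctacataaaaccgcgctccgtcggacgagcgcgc
Dusp6: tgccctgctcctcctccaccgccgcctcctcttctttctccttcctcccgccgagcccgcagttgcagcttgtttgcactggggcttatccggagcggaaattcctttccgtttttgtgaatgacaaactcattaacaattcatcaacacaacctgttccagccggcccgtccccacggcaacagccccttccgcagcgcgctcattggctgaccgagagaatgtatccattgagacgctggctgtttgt

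The Nr4a1 promoter held 4 such motifs, which began 40, 69, 213 and 233 bases before the start. Dusp1 held 3 and Egr4 held 2, and in Dusp1 a pair of them formed the full palindrome. A promoter was listed for 41 of the 54 immediate early genes, and 28 of these (68.3%) held TGACG on either strand, beside 28.1% of the 12261 tested genes with a promoter. The share was 69.2% among the 26 genes with an unadjusted p under 0.05 and 66.7% among the other 15, so the motif did not separate them. The palindrome TGACGTCA was in 7 of 41 (17.1%) and 2.79% of all, and TATAAA in 6 of 41 (14.6%) and 8.74% of all. These matches describe the letters in the window and say nothing of binding in these samples.

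Among early genes of vessels, a list of 6, all 6 differences were above 0 with a median of 0.87, and 3 were higher at an unadjusted p under 0.05. In NSG mice 5 of the 6 rose, beside 5.01% of all genes, and in WT mice edgeR called none while 4 were higher at an unadjusted p under 0.05, with a median of 0.43. At that threshold 3591 of all 17031 genes were higher in WT mice. Ccn1, a matrix protein made by endothelium and smooth muscle, had 25.7, 29.8 and 8.66 CPM in stroked NSG mice and 3.42, 5.46, 8.93 and 4.80 CPM in non-stroked ones. Zfp36, which destabilises cytokine mRNA, had 13.9, 22.1 and 8.87 CPM with stroke and 4.39, 4.52, 5.90 and 4.83 CPM without. In both genes mice 1f_1 and 1f_2 were high and mouse 1m_3 was lower, within the non-stroked NSG range for Ccn1 and above it for Zfp36. The differences from WT were 2.92 ± 0.686 for Ccn1 and 1.13 ± 0.323 for Zfp36 (edgeR adjusted p = 0.113 and 0.173). The broader list of 40 angiogenesis genes had a median difference of 0.00, with 20 values above 0 and 3 higher at an unadjusted p under 0.05, namely Vegfa, Adamts1 and Apln, beside 6.71% of all genes. With the title prefix as a covariate 8 of the 40 angiogenesis genes were higher, with a median of 0.14. The 20 endothelial and barrier genes had a median difference of 0.07, with 11 values above 0. At an unadjusted p under 0.05, 2 were higher and 1 lower, beside 6.71% and 6.01% of all genes. With the title prefix as a covariate the median of these 20 genes was 0.31. Of these, Cldn5, a tight junction protein of the blood-brain barrier, had 28.3, 25.3, 22.9 and 18.5 CPM in non-stroked and 12.4, 8.95, 14.6 and 14.4 CPM in stroked WT mice, and 37.1, 18.6 and 11.9 CPM in stroked NSG mice. The WT groups were apart while the stroked NSG mice spanned both, and the difference was 0.96 ± 0.375 (edgeR adjusted p = 0.313).

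Heat shock genes, which encode chaperones for unfolded protein, differed in the same direction as the immediate early genes but with smaller values. Their summed level was 2373, 2069 and 1741 CPM in stroked NSG mice 1f_1, 1f_2 and 1m_3, beside 1745 to 1873 CPM in non-stroked NSG mice. Mouse 1m_3 thus lay below every non-stroked NSG mouse, unlike in the summed immediate early genes. In WT mice the sums were 2382 to 2898 CPM without and 2040 to 2109 CPM with stroke. All 12 had a positive difference, with a median of 0.63, and 10 were higher at an unadjusted p under 0.05 and 0 lower, beside 6.71% and 6.01% of all genes. The list's median was -0.26 in WT and 0.39 in NSG mice, and 9 of the 12 were lower in non-stroked NSG than in non-stroked WT mice at an unadjusted p under 0.05, beside 11.1% of all genes. Hsph1 had 331, 319, 346 and 403 CPM in non-stroked WT mice, 246, 240, 255 and 245 CPM in stroked WT mice, 263, 288, 264 and 290 CPM in non-stroked NSG mice and 322, 318 and 256 CPM in stroked NSG mice. The WT groups did not overlap, while stroked NSG mouse 1m_3 lay below every non-stroked NSG mouse. The difference was 0.62 ± 0.121 (SE; edgeR adjusted p = 0.0546). Hspa8 differed by 0.58 ± 0.138 and Dnajb5 by 0.76 ± 0.183 (edgeR adjusted p = 0.115 for each). Calr, a calcium-binding chaperone of the endoplasmic reticulum outside this list, had 721, 693 and 472 CPM in stroked NSG mice, beside 396 to 433 CPM in non-stroked NSG mice and 387 to 501 CPM over all WT mice. Its difference was 0.74 ± 0.147 (edgeR adjusted p = 0.0546).

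Il2rg itself, the gene inactivated in NSG mice, had 0.854, 0.871, 0.716 and 0.742 CPM in non-stroked WT mice and 3.46, 2.11, 2.52 and 3.30 CPM in stroked WT mice. NSG mice had 1.05, 0.863, 0.822 and 0.681 CPM without and 0.784, 0.914 and 0.979 CPM with stroke. Stroked WT mice stood above all other samples, whereas both NSG groups overlapped the non-stroked WT mice. Il2rg rose in WT mice by 1.84 (edgeR adjusted p = 0.000282) and its change in NSG mice was 0.06 (edgeR adjusted p = 0.926). The difference was -1.78 ± 0.493 (SE) and did not pass over all genes (edgeR adjusted p = 0.156); it was between -1.92 and -1.55 over the 25 alternatives. The counts do not say which part of a transcript they cover, so this level is no check of the deletion. Prkdc had 27.3 to 36.5 CPM in non-stroked NSG and 27.8 to 30.3 CPM in non-stroked WT mice, and 16.7, 24.6 and 27.5 CPM in stroked NSG mice, with a difference of -0.51 ± 0.2 (edgeR adjusted p = 0.313).

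The common gamma chain pairs with other receptor chains. Of 7 receptor genes tested, Il2rg included, 5 rose in WT and 1 in NSG mice, beside 6.76% and 5.01% of all genes, all 7 differences were below 0, and 2 were lower at an unadjusted p under 0.05, Il2rg and Il2rb. Il2rb, the beta chain of the receptors for IL-2 and IL-15, had 0.228, 0.218, 0.0265 and 0.110 CPM in non-stroked and 0.959, 0.945, 1.39 and 1.62 CPM in stroked WT mice. In NSG mice it had 0.234, 0.330, 0.539 and 0.464 CPM without and 0.354, 0.198 and 0.551 CPM with stroke, so the NSG groups overlapped. The difference was -3.16 ± 0.812 (edgeR adjusted p = 0.126).

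Several T cell genes rose in WT mice, at low levels. Of 18 tested, 10 rose in WT mice, beside 6.76% of all genes, and 0 in NSG mice by the edgeR call. In NSG mice 2 were higher at an unadjusted p under 0.05, beside 3455 of all 17031 genes. The median difference was -1.04, 15 of 18 values were below 0, and 2 were lower at an unadjusted p under 0.05, beside 6.01% of all genes. Those 2 were Cd247, the zeta chain of the T cell receptor, at -2.03 ± 0.864 (edgeR adjusted p = 0.331), and Lck, its proximal kinase, at -0.94 ± 0.326 (edgeR adjusted p = 0.254). Cd247 was below 0.34 CPM in every sample: stroked WT mice had 0.202, 0.333, 0.217 and 0.153 CPM and stroked NSG mice 0.0759, 0.0988 and 0.0306 CPM. Lck reached 2.13 CPM in non-stroked NSG mouse 3, above every stroked WT mouse. Summed T cell genes were 28.9 to 39.9 CPM in stroked WT mice and 19.6 to 43.1 CPM in stroked NSG mice, and the highest sum was that of non-stroked NSG mouse 4, at 55.7 CPM, which also had the highest sum of midbrain, striatum and thalamus markers. The part of tissue composition in these sums was not tested.

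NK cell genes were rarer still, with 6 of 14 passing the filter on low counts. All 6 rose in WT mice and 1 in NSG mice, beside 6.76% and 5.01% of all genes. Genes this rare pass the filter mainly through groups where they are high, so a rise among the 6 was in part given by the filter. The shares of all genes are therefore not a like comparison. In a fit of the 4 groups alone, 2 NK cell genes passed the filter. Klrd1, a receptor subunit of NK cells, had 0 counts in all 4 non-stroked WT mice, 2, 8, 10 and 8 counts in stroked WT mice, 0, 7, 0 and 2 counts in non-stroked NSG mice and 3, 2 and 3 counts in stroked NSG mice. Ccl5, a chemokine of NK and T cells, had 2.37, 0.945, 0.826 and 1.34 CPM in stroked WT mice and 0.253, 0.494 and 0.275 CPM in stroked NSG mice, beside at most 0.142 CPM without stroke. Stroked NSG mice lay between the non-stroked mice and the stroked WT mice. Eomes and Tbx21, transcription factors of NK and T cells that are also known in neurons of the olfactory bulb, were high in stroked WT mice 2m_3 and 5_3 and in non-stroked NSG mouse 3, where Cdhr1, a gene of olfactory bulb projection neurons, was high as well. Eomes had 6.72, 14.6 and 8.93 CPM and Cdhr1 32.8, 81.7 and 35.0 CPM in these 3 samples, beside at most 1.81 and 8.31 CPM in the other 12. Cdhr1 and Tbx21 were singled out after their values had been seen, and the part of olfactory tissue in the NK result was not tested. Tbx21 was not a member of the NK list. Without Eomes the summed NK genes were 2.04 to 3.46 CPM in stroked WT mice, 0.734 to 1.33 CPM in stroked NSG mice, and 0.11 to 0.355 CPM in non-stroked mice of both genotypes, and these 3 ranges did not overlap.

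**Figure D3:**
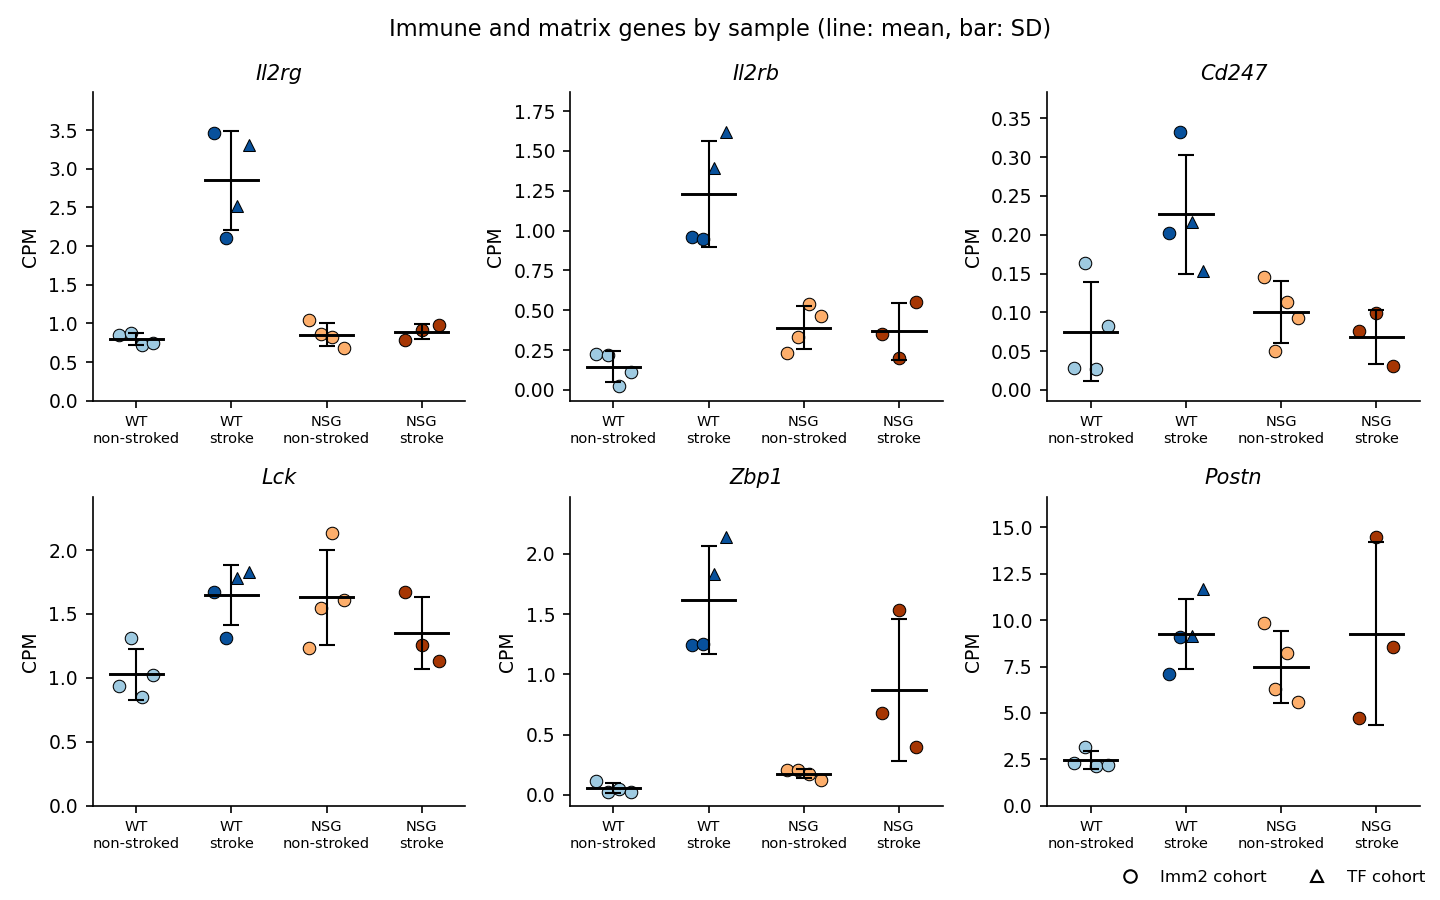
Level in CPM (vertical axes) of 5 immune genes and of Postn in each sample of the 4 groups, with the mean as a line and the SD as a bar; circles are Imm2 and triangles TF samples. Il2rg is above 2 CPM in the 4 stroked WT samples and near 1 CPM or lower in all others, and non-stroked NSG mice already hold 5.60 to 9.83 CPM of Postn.

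**Figure D4:**
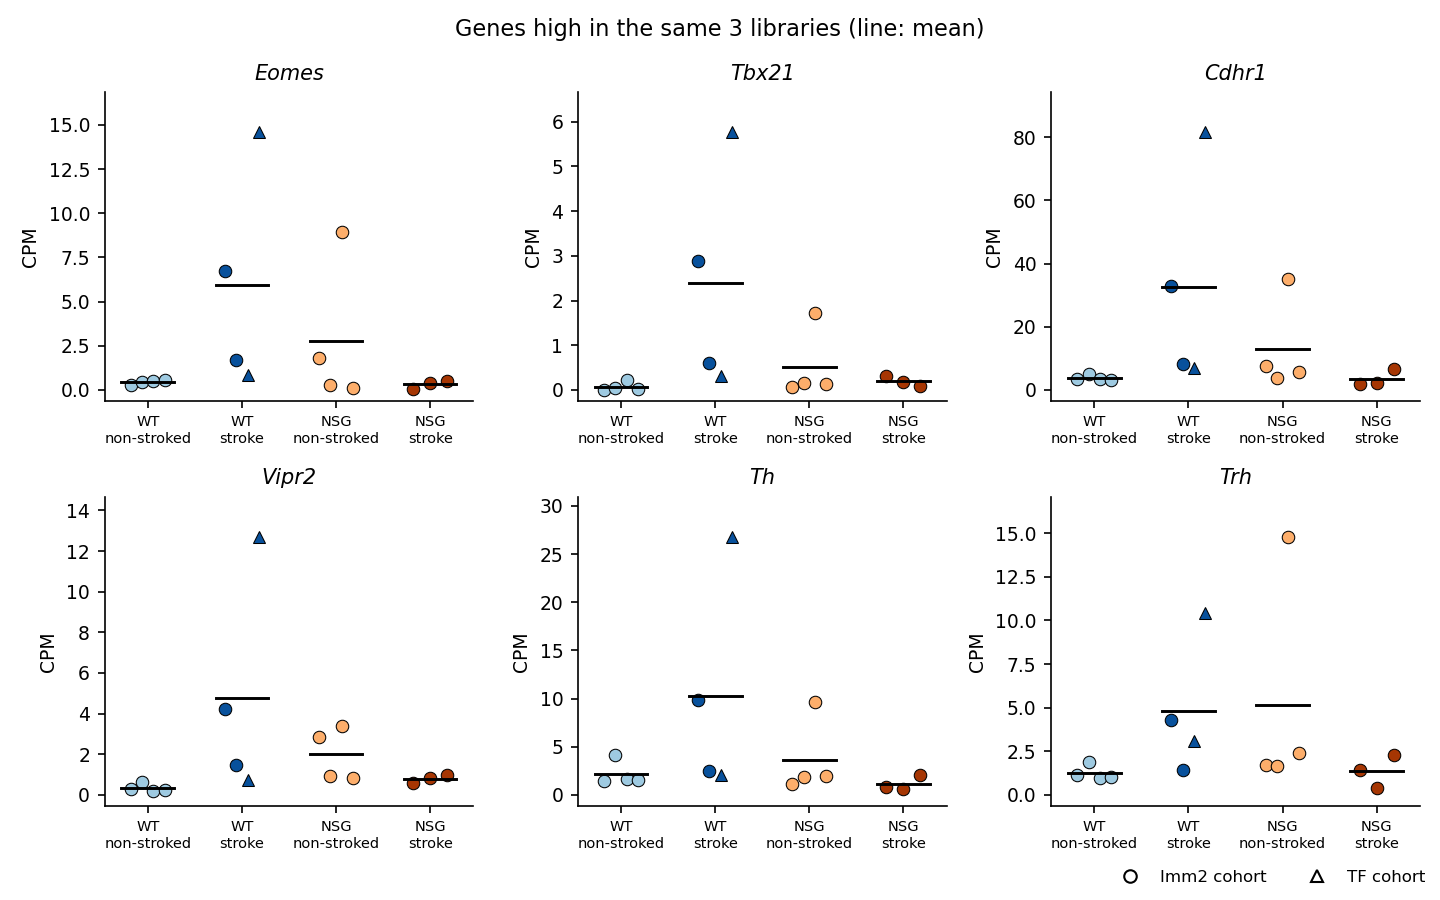
Level in CPM (vertical axes) of 6 genes in each sample of the 4 groups, with the mean as a line; circles are Imm2 and triangles TF samples. The same 3 samples, stroked WT mice 2m_3 and 5_3 and non-stroked NSG mouse 3, are the highest for Eomes, Tbx21, Cdhr1, Vipr2, Th and Trh, with 32.8, 81.7 and 35.0 CPM for Cdhr1.

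Of 10 B cell genes tested, 4 rose and 1 fell in WT mice, beside 6.76% and 0.54% of all genes. None was called by edgeR in NSG mice, where 2 were higher at an unadjusted p under 0.05, beside 3455 of all 17031 genes. For the difference 1 was lower at an unadjusted p under 0.05, beside 6.01% of all genes. That gene was Jchain, which joins secreted antibodies, with 0.783, 1.17, 0.652 and 0.703 CPM in stroked WT mice and 0.455, 0.346 and 0.490 CPM in stroked NSG mice. Its difference was -1.32 ± 0.605 (edgeR adjusted p = 0.366).

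Interferon-stimulated genes are induced by type I and type II interferons. Of 41 tested, 24 rose in WT mice and 10 in NSG mice, beside 6.76% and 5.01% of all genes, and the 10 were among the 24. The median difference was -0.42 and 35 of 41 values were below 0, but 2 were lower at an unadjusted p under 0.05, beside 6.01% of all genes, and 0 were higher. Zbp1, a sensor of nucleic acids, had 1.24, 1.25, 1.83 and 2.14 CPM in stroked WT mice and 0.683, 1.53 and 0.398 CPM in stroked NSG mice, and these groups overlapped. It rose by 4.78 in WT and 2.29 in NSG mice, with a difference of -2.48 ± 1.02 (edgeR adjusted p = 0.329). Ifit3b had 5.53, 4.89, 4.69 and 6.05 CPM in stroked WT and 2.91, 2.99 and 3 CPM in stroked NSG mice, without overlap, and its difference was -0.85 ± 0.398 (edgeR adjusted p = 0.38). With the title prefix as a covariate the median of the interferon-stimulated genes was -0.11 and 0 were lower at an unadjusted p under 0.05. The summed list was 353 and 312 CPM in the stroked WT mice of Imm2, 380 and 425 CPM in those of TF, and 252, 368 and 256 CPM in stroked NSG mice.

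Other immune lists are given as the number that rose in WT and in NSG mice, beside 6.76% and 5.01% of all genes, and these numbers were not tested against each other. Of 16 complement genes 13 rose in WT and 12 in NSG mice, and none had an unadjusted p under 0.05 for the difference. Fc receptors rose in 6 of 6 tested genes in either genotype. MHC class I genes rose in 11 and 12 of 19. MHC class II genes, which present antigen to helper T cells, rose in 9 and 8 of 10, and 9 of 10 differences were below 0 with a median of -0.61. With the title prefix as a covariate the MHC class II median was -0.28, with 4 of 10 above 0, and within the Imm2 samples it was -0.38. The one at an unadjusted p under 0.05 was H2-Ob, which regulates peptide loading in B cells, with 0.722 to 1.28 CPM in stroked WT mice and 0.184 to 0.395 CPM in stroked NSG mice (difference -1.26 ± 0.587, edgeR adjusted p = 0.376). Chemokine ligands rose in 15 and 13 of 20, chemokine receptors in 6 and 2 of 11, and border macrophage and monocyte genes in 15 and 9 of 17, where 15 differences were below 0 and 1 was lower at an unadjusted p under 0.05. Summed border macrophage and monocyte genes were 55.7 and 61.7 CPM in the Imm2 and 94.5 and 116 CPM in the TF stroked WT mice. In stroked NSG mice they were 49.0, 101 and 63.6 CPM, which overlapped both pairs. C4b, a complement component made by astrocytes and oligodendrocytes after injury, had 101 to 243 CPM in stroked WT and 137 to 234 CPM in stroked NSG mice, beside 12 to 15.9 CPM in non-stroked WT and 22.9 to 38.2 CPM in non-stroked NSG mice. Its difference was -1.17 ± 0.611 (edgeR adjusted p = 0.416).

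**Figure D5:**
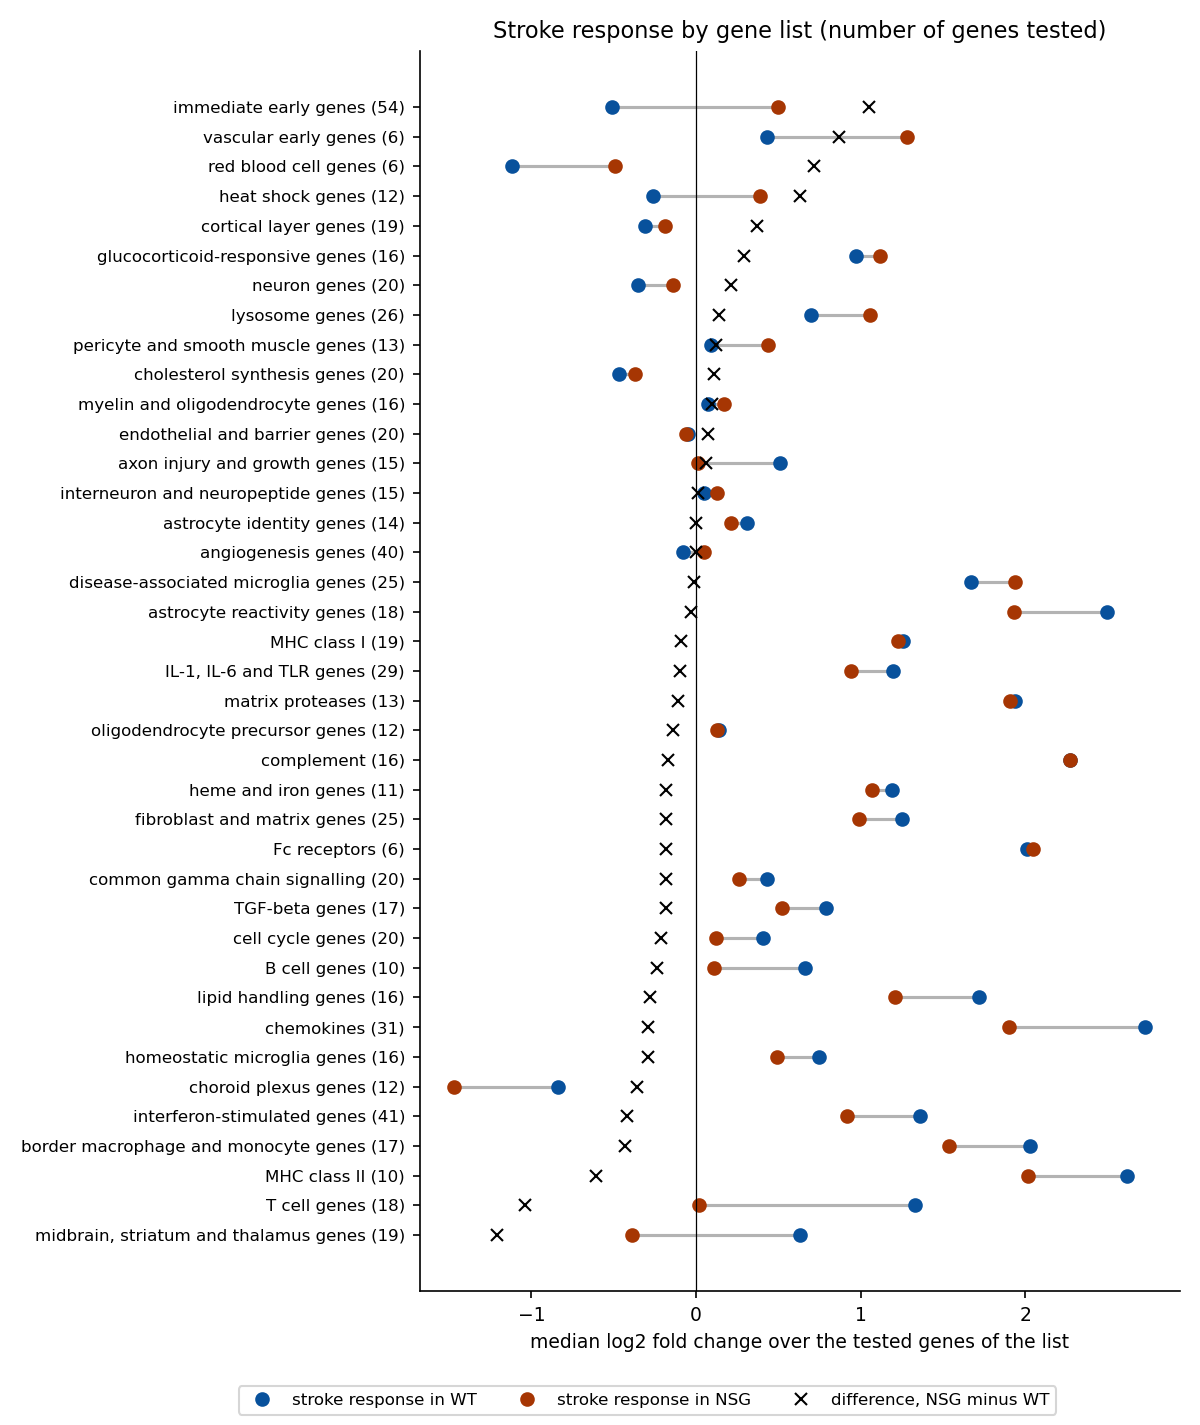
Median log2 fold change after stroke over the tested genes of each of 39 gene lists, in WT mice (blue), in NSG mice (brown) and as the median of the differences NSG minus WT (crosses), with the number of genes tested in parentheses; lists with under 5 genes tested or less than 50% of their genes tested are left out. Immediate early genes have the most positive median difference at 1.05, and T cell genes and the markers of other brain regions the most negative of those plotted at -1.04 and -1.21; the median of the midbrain, striatum and thalamus genes was -0.13 without non-stroked NSG mice 3 and 4.

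Of 25 genes of disease-associated microglia 20 rose in WT and 20 in NSG mice, beside 6.76% and 5.01% of all genes, 19 of them in both, and none had an unadjusted p under 0.05 for the difference. Of 16 homeostatic microglia genes 5 rose in WT and 3 in NSG mice, and 13 differences were below 0. All 17 astrocyte reactivity genes that rose in WT mice also rose in NSG mice. No gene of the lists for astrocyte identity, myelin and oligodendrocytes, or oligodendrocyte precursors was called as higher in either genotype by edgeR, and 8 of 14, 2 of 16 and 3 of 12 were higher at an unadjusted p under 0.05 in WT mice. At that threshold 3591 of all 17031 genes were higher in WT mice. Gfap, the main intermediate filament of astrocytes, had 903, 765, 1066 and 1144 CPM in stroked WT mice and 1284, 1601 and 939 CPM in stroked NSG mice, with a difference of -0.47 ± 0.463 (edgeR adjusted p = 0.681). Aif1, a marker of microglia and macrophages, differed by -0.20 ± 0.378 (edgeR adjusted p = 0.85). Gfap and Aif1 were chosen after their values had been seen. Serpina3n, a protease inhibitor of reactive astrocytes, had 42.2 to 59.2 CPM in non-stroked NSG mice, beside 16.8 to 19.4 CPM in non-stroked WT mice, and 108 to 227 and 94.3 to 206 CPM with stroke. It was the only reactivity gene at an unadjusted p under 0.05 (-1.32 ± 0.592, edgeR adjusted p = 0.357), and non-stroked NSG mice lay above non-stroked WT mice without overlap while the stroked groups overlapped.

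Among 25 fibroblast and matrix genes 15 rose in WT and 12 in NSG mice, beside 6.76% and 5.01% of all genes. Postn, a matrix protein of scar fibroblasts, had 2.31, 3.16, 2.15 and 2.17 CPM in non-stroked WT mice, 7.12, 9.11, 9.13 and 11.7 CPM in stroked WT mice, 9.83, 6.27, 8.25 and 5.60 CPM in non-stroked NSG mice and 4.73, 14.5 and 8.57 CPM in stroked NSG mice. Non-stroked NSG mice lay above all non-stroked WT mice and overlapped the stroked WT mice. The difference was -1.61 ± 0.515 (edgeR adjusted p = 0.217). Col6a1, a chain of collagen VI, differed by -0.99 ± 0.333 (edgeR adjusted p = 0.241). Lipid handling genes rose in 10 and 7 of 16. Apoc2, a cofactor of lipoprotein lipase, had 22, 28, 33 and 87 counts in stroked WT mice and 1, 5 and 3 counts in stroked NSG mice, with at most 2 counts in any non-stroked mouse. Cd36, a scavenger receptor for lipids, had 1.16, 3.20, 6.48 and 7.09 CPM in stroked WT mice, of which the last pair are the TF mice, and 0.962, 3.24 and 1.59 CPM in stroked NSG mice. Its difference was -2.94 ± 1.15 (edgeR adjusted p = 0.313).

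Of 20 neuron genes none was called by edgeR in either genotype, and at an unadjusted p under 0.05 12 were lower after stroke in WT mice and 5 in NSG mice, with medians of -0.35 and -0.14. Over all 17031 genes, 3118 were lower in WT and 2661 in NSG mice at that threshold. For the difference, 15 values were above 0. At an unadjusted p under 0.05, 4 were higher and 1 lower, beside 6.71% and 6.01% of all genes. The median of the neuron genes was 0.21, and it was -0.02 with 10 of 20 above 0 with the title prefix as a covariate and -0.06 with 8 of 20 above 0 within the Imm2 samples, so the direction of the list depended on the TF mice. Nefm and Nefh, neurofilament subunits of large axons, differed by 0.86 ± 0.229 and 0.97 ± 0.261 (edgeR adjusted p = 0.137 for each). Nefh had 94.0, 121, 91.4 and 95.7 CPM in non-stroked WT mice, 81.8, 67.0, 44.7 and 44.2 CPM in stroked WT mice, 121, 109, 80.8 and 118 CPM in non-stroked NSG mice and 156, 105 and 112 CPM in stroked NSG mice. The stroked WT mice lay below every non-stroked WT and every stroked NSG mouse, and the TF pair was lowest. Summed neuron genes were 17742 and 19296 CPM in the Imm2 stroked WT mice, 13285 and 13055 CPM in the TF pair, and 15613, 17420 and 17194 CPM in stroked NSG mice. The 15 interneuron and neuropeptide genes had a median difference of 0.01. At an unadjusted p under 0.05, 4 were higher and 4 lower, beside 6.71% and 6.01% of all genes. Reln, a secreted guidance protein of layer 1 and interneurons, differed by -0.88 ± 0.269 (edgeR adjusted p = 0.198). Cort differed by 1.47 ± 0.369 (edgeR adjusted p = 0.123) and Crh by 1.25 ± 0.347 (edgeR adjusted p = 0.156). Cort and Crh were lower in non-stroked NSG than in non-stroked WT mice without overlap, with 3.32 to 4.57 beside 6.64 to 8.86 CPM for Cort and 2.57 to 3.91 beside 4.24 to 5.50 CPM for Crh.

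Of the genes with the smallest p on the lower side, Fam214a was the only one past an adjusted p of 0.05. Hrk, a pro-apoptotic BH3-only protein, had 35.9, 29.7, 33.8 and 35.5 CPM in non-stroked and 52.6, 56.6, 65.4 and 52.1 CPM in stroked WT mice, without overlap, and 37.8, 42.8, 63.1 and 44.5 CPM without and 35.2, 31.2 and 49.9 CPM with stroke in NSG mice. Its difference was -1.03 ± 0.221 (edgeR adjusted p = 0.0779). Hes5, a target of Notch in neural progenitors and astrocytes, differed by -1.56 ± 0.36 (edgeR adjusted p = 0.102) and Dcaf7 by -0.46 ± 0.0994 (edgeR adjusted p = 0.0779). Vipr2, a receptor for vasoactive intestinal peptide, had the lowest value of the 15 genes with the smallest p on this side, -5.11 ± 1.21 (edgeR adjusted p = 0.115). Stroked WT mouse 5_3 had 12.7 CPM of it, and the others were at 4.22 CPM or lower. The next highest were stroked WT mouse 2m_3 at 4.22 CPM and non-stroked NSG mouse 3 at 3.40 CPM. These are the samples that were also high for Cdhr1. The 16 glucocorticoid-responsive genes had a median difference of 0.29, with 11 values above 0. At an unadjusted p under 0.05, 3 were higher and 1 lower, beside 6.71% and 6.01% of all genes. The lower one, Fkbp5, had 64.0, 68.2, 79.7 and 80.5 CPM in stroked WT and 39.9, 51.1 and 43.5 CPM in stroked NSG mice, without overlap. It rose in WT mice by 1.41 and its change in NSG mice was 0.55, a difference of -0.86 ± 0.233 (edgeR adjusted p = 0.139).

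The same NSG mice set against Rag2-/- mice gave no call by edgeR, with 1598 genes at an unadjusted p under 0.05, and 14 calls by DESeq2. This comparison shares the 7 NSG samples with the one above, so the values are given side by side and are not independent. Of the immediate early genes 34 were higher in the NSG response at an unadjusted p under 0.05, beside 4.22% of all genes, with a median of 0.82 where the comparison with WT gave 1.05. The median of the Rag2-/- stroke response was -0.42 and that of the WT response -0.51. Egr1 differed from Rag2-/- by 1.51 and from WT by 1.91, Nr4a1 by 2.21 and 2.30, Vegfa by 0.57 and 0.75, Gatm by 0.42 and 0.78, and Fam214a by -0.72 and -0.88. For Il2rg the values were -1.72 and -1.78. The 18 T cell genes had a median of 0.11 against Rag2-/- and -1.04 against WT. The difference between the 2 comparisons was not tested.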

How the data were processed

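RNA was taken from brain tissue of separate mice and sequenced as stranded, poly(A)-selected libraries. The authors deposited 1 table per sample of whole-number read counts per gene, not normalised; the aligner, genome build and strand setting of the counting are not given in the sources used here. Of 25746 Ensembl IDs, 25712 were named from GENCODE vM21 (GRCm38). From the counts, 17031 genes that passed the edgeR filter on low counts were tested in 1 quasi-likelihood fit of 8 groups and 29 samples (R 4.3.3, edgeR 4.0.16, TMM normalisation) with Benjamini-Hochberg adjustment, and the difference of responses was a contrast in that fit. CPM are TMM-normalised. The script was tested on simulated data. DESeq2 1.42.0, other filters and normalisations, covariates, a replicate block and leaving out each sample were tried as alternatives. The members and gene lists were chosen with earlier results of these data known. Named genes were those called, the 15 with the smallest p in each direction at a mean of at least 1 CPM, all immediate early genes, the 3 with the smallest p of every other list, Il2rg, Prkdc, Ddx3y and the 10 with the smallest DESeq2 p; Gfap, Aif1, Cdhr1, Tbx21, Th and Trh were added after their values were seen. RefSeq gave the promoters.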

Additional observations from a re-analysis of the deposited data

Results flagged for a closer look

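The stroke response differed between NSG and WT mice by the test of the difference itself, an edgeR contrast at an adjusted p under 0.05, for 5 genes: Nr4a1 by 2.30, Egr1 by 1.91, Gatm by 0.78, Vegfa by 0.75 and Fam214a by -0.88 on the log2 scale. Their levels per sample are given above.

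A single sample lay far from the others of its group in 5 of the 105 groups examined, where chance alone flags about 1 in 20. These were 35 genes and list sums in non-stroked WT, stroked WT and non-stroked NSG mice, and stroked NSG mice were not examined. The rate of 1 in 20 does not hold for Tbx21 and Cdhr1, which were chosen after their values had been seen. Dusp6 was at 55.6 CPM in non-stroked NSG mouse 2, beside 37.0 to 37.6 CPM in the other 3. Tbx21 was at 1.73 CPM and Cdhr1 at 35.0 CPM in non-stroked NSG mouse 3, beside at most 0.152 and 7.52 CPM in the other 3. Vipr2 was at 0.653 CPM in non-stroked WT mouse 3, beside 0.212 to 0.285 CPM. Prkdc was at 27.8 CPM in non-stroked WT mouse 4, beside 30.2 and 30.3 CPM.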

How the results depend on the processing

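The count of 2 genes whose response differed between NSG and WT mice was 4 with a minimum mean of 1 CPM, 0 in a fit of the 4 groups alone, 0 with the title prefix (Imm2 or TF) as a covariate, 0 within Imm2, 69 by DESeq2, 8 with Ddx3y as a covariate, 5 with no minimum fold, and 0 without non-stroked NSG mice 3 and 4, an alternative chosen after seeing the data. Leaving out each of 15 samples gave 0 to 117. The count of 1244 for stroke in WT was 712 with the prefix as a covariate, 707 within Imm2 and 4579 with no minimum fold; that of 933 for stroke in NSG was 549 in a fit of its own groups, 556 with Ddx3y and 3726 with no minimum fold. NSG against Rag2-/- gave 14 by DESeq2, and 0 to 21 when samples were left out: 21 without stroked NSG mouse 1m_3, 4 without non-stroked Rag2-/- mouse 4, and 1 without non-stroked NSG mouse 1 or 2. Fitting fewer samples leaves fewer degrees of freedom; other causes were not tested.

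With the replicate number as a block the counts were 12 for NSG against WT, 14 for stroke in WT and 0 for stroke in NSG. Only non-stroked mice whose number recurred in another strain had a block term, and all other mice shared a level. Non-stroked WT mouse 5 was the only non-stroked mouse at that level. The contrasts of stroke with no stroke in that fit thus rested on mouse 5, and their low counts say little about the stroke response. Same-numbered non-stroked NSG and WT mice had correlations of -0.258, 0.108 and -0.135, and differently numbered ones had -0.134 to 0.301. The same-numbered mice were thus no more alike, but so few values cannot exclude a pairing.

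Of 80 named genes 75 kept their direction throughout. Atf3 was at -0.03 and Spred1 at -0.05 with the block, Rgs2 at 0.26 with the prefix, 0.21 within Imm2 and 0.33 without mice 3 and 4, Rgs4 at 0.00 with the prefix, 0.07 with the block, 0.01 with Ddx3y and 0.09 without mice 3 and 4, and Baz1a at 0.24, 0.30 and 0.00 with the prefix, within Imm2 and without mice 3 and 4. Leaving out samples gave -0.17 to 0.73 for Atf3, -0.07 to 0.15 for Spred1, -0.16 to 0.23 for Rgs2, -0.12 to 0.18 for Rgs4 and -0.64 to 0.07 for Baz1a.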

Other observations

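Tyrosine hydroxylase (Th), the first enzyme of dopamine synthesis, and Trh, a hypothalamic releasing hormone also made in the olfactory bulb, were highest in the same 3 samples as Cdhr1. Th had 9.82 and 26.8 CPM in stroked WT mice 2m_3 and 5_3 and 9.61 CPM in non-stroked NSG mouse 3, beside at most 4.16 CPM in the other 12. Trh had 4.32, 10.4 and 14.8 CPM in these samples, beside at most 3.09 CPM. Ccr6, a chemokine receptor, had 78, 82, 82 and 74 counts in non-stroked and 37, 79 and 77 counts in stroked NSG mice, beside at most 7 counts in any WT mouse. Summed red blood cell genes were 15.3 to 97.6 CPM in non-stroked and 17.1 to 41.6 CPM in stroked NSG mice, beside 3.89 to 24.9 and 2.83 to 7.85 CPM in WT mice. The part of tissue composition in these values was not tested.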
